A study of Mus musculus with 9 samples.

Results

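The 33 genes described here belong to the response of cells to low oxygen and to glycolysis, and their RNA was measured by bulk sequencing in 9 libraries of newborn mouse cortex. They were found by gene name in both deposited tables, which list 22496 and 23624 genes, and all 33 stand in each. The list was chosen by earlier measurements on these same libraries, in which several of its genes were higher after ShhN electroporation, together with textbook knowledge of the pathway. The counts and tests of these genes given below are therefore descriptions, and nothing independent follows from them.

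Each group held 3 libraries from cortex dissected at postnatal day 0, on a mixed C57BL/6J, 129S6 and CD1 background. In the ShhN IUE group, Sonic hedgehog (SHH) in the form of its N-terminal signal, ShhN, was introduced by in utero electroporation. The SmoM2 group carried hGFAP-Cre and a SmoM2f allele (SmoM2f/+), an activated form of the SHH transducer Smoothened switched on by Cre under the human GFAP promoter, which is active in cortical radial glia. The wild-type mice are labelled as littermates. No library is labelled as electroporated without ShhN, so ShhN and the electroporation procedure cannot be told apart, and litter or batch would likewise move with the group. The labels do not say that the libraries of a group came from separate animals, so p-values reflect only the spread among these libraries. In bulk tissue, fewer cells of a type and less RNA per cell cannot be told apart.

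Totals were 15376071 to 19604672 counts in ShhN IUE libraries, 23625702 to 26923127 in SmoM2 libraries and 18610507 to 21694348 in wild-type libraries. The 8 forebrain and cortex markers were all detected, with a summed level of 1943 to 2500 CPM (counts per 1000000 after TMM scaling) in ShhN IUE and 1978 to 2719 CPM in wild type of the same table. In SmoM2 the sum was 2357 to 2505 CPM against 2496 to 2977 CPM in wild type. Single markers did change. At an edgeR adjusted p under 0.05, 2 of the 8 were lower in ShhN IUE and 4 in SmoM2, with 0 higher in either. Over all genes tested, 17.2% were lower in ShhN IUE and 9.29% in SmoM2. The SHH target Gli1 stood at 26.0, 27.7 and 68.9 CPM in ShhN IUE libraries against 5.65, 9.13 and 7.75 CPM in wild type, and at 47.3, 42.7 and 49.96 CPM in SmoM2 libraries against 5.63, 9.15 and 7.71 CPM in wild type. Shh itself stood at 2.59, 3.09 and 28.5 CPM in ShhN IUE libraries 1, 2 and 3 against 1.87, 2.82 and 1.70 CPM in wild type. Only library 3 was thus far above wild type for Shh. Among the ShhN IUE libraries, library 2 stood apart for the genes described here, and the counts of called genes that use it are given with and without it.

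When oxygen is short, the transcription factor HIF1, a pair of an oxygen-labile alpha subunit (Hif1a) and a stable beta subunit (Arnt), escapes hydroxylation by the prolyl hydroxylases Egln1 to Egln3 and destruction by the VHL ubiquitin ligase. It then binds a short core motif in target genes, many of which serve glucose uptake, glycolysis, lactate export and blood vessel growth. Because control is mainly on the stability of the protein, the level of Hif1a RNA does not report the activity of HIF1. Proliferating neural progenitors are known to rely on glycolysis more than neurons do.

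In wild-type cortex the list spanned genes of very different abundance. By deposited FPKM (fragments per kilobase, scaled to library depth), a unit that corrects for gene length, Pkm was the most abundant at 180 ± 27.8 (SD, n = 3), followed by Pgam1 at 120 ± 9.63, in the wild-type libraries of the ShhN IUE table. Ldhb at 52.0 ± 4.30 and Ldha at 49.2 ± 9.77 did not differ beyond their spread. At the other end stood Hk2 at 0.574 ± 0.0396, Adm at 0.523 ± 0.103, Slc16a3 at 0.229 ± 0.0753 and Car9 at 0.00857 ± 0.00743. Hk2 and Adm did not differ beyond their spread either. Exons of another annotated gene overlap 13 of the 33 genes, 12 of them on the opposite strand, and the sources used here do not say whether counting used strand.

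In ShhN IUE cortex, genes for vessel growth, glucose uptake, glycolysis and lactate export were higher than in wild type, among them Vegfa, Adm, Slc2a1, Hk2, Slc16a3 and Ddit4. Counts were tested with the quasi-likelihood test of edgeR, with p adjusted over all genes of a table by the Benjamini-Hochberg method. Of 32 genes tested in ShhN IUE, 14 were higher and 1 was lower at an adjusted p under 0.05, and 17 did not pass, beside 16.1% of all 16180 genes called higher and 17.2% called lower. Their median log2 fold change was 0.77, against -0.0038 over all genes tested, and 28 of the 32 changes were positive. The 3 ShhN IUE libraries lay above all 3 wild-type libraries in 15 genes, where 24.5% of all genes did so, and below them in Hif1a and Egln1, where 24.9% of all genes did so. SmoM2 gave another picture. Of 32 genes tested, 1 was higher (Eno1), 1 was lower (P4ha2) and 30 did not pass, beside 9.59% of 16485 genes called higher and 9.29% called lower, with a median of -0.09 against -0.0072 over all genes. Groups did not overlap in 6 genes, only Eno1 higher, where 20.4% of all genes lay higher and 19.7% lower without overlap. Both comparisons share the same wild-type libraries, quantified separately in each table.

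**Figure D1:**
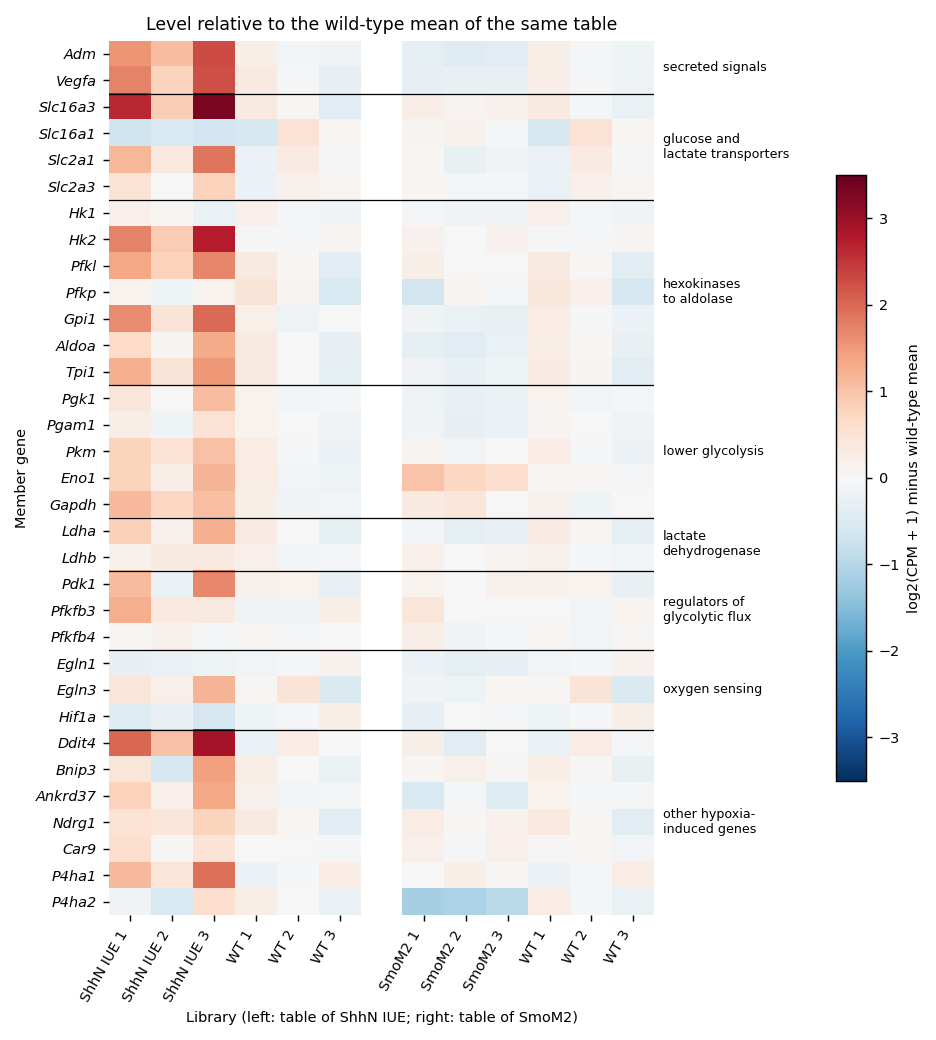
Level of each of the 33 genes in every library, as log2(CPM + 1) minus the wild-type mean of the same table, ordered by role; red is above and blue below that mean. In the ShhN IUE table the red cells lie in libraries 1 and 3 more than in library 2, and in the SmoM2 table most cells are pale apart from Eno1 and P4ha2.

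The ShhN IUE libraries differed among themselves. Library 1 lay above all 3 wild-type libraries in 24 of the 32 genes, library 2 in 17 and library 3 in 26, where 35.8%, 35.7% and 37.8% of all genes did so. The median difference from the wild-type mean, on the log2(CPM + 1) scale, was 0.78 in library 1, 0.19 in library 2 and 1.19 in library 3. Library 2 was set apart by these same values, so the counts without it follow in part from that choice and are a description only. Without library 2, 21 of the 32 genes were called higher and 1 lower, beside 13.8% and 13.9% of all 16683 genes, and the median log2 fold change was 1.02 against 0.0014 over all genes. Groups then did not overlap in 23 genes higher and 3 lower, where 29.8% and 28.6% of all genes did so. The added higher ones were Aldoa, Ankrd37, Bnip3, Ldha, Pdk1, Pfkfb3, Pgk1 and Slc2a3, while Ndrg1 was no longer called. With ShhN IUE library 1 left out instead, 11 were called higher and 0 lower, and with library 3 left out, 13 and 0. Over all genes, 3251 to 4624 were called in either direction with any 1 library left out. The SHH target Ptch1 stood at 133, 115 and 301 CPM in ShhN IUE libraries 1, 2 and 3 against 29.7, 42.4 and 50.0 CPM in wild type. Library 3 was thus the highest ShhN IUE library for Ptch1 as for Gli1, and library 2 was the lowest for Ptch1 and close to library 1 for Gli1. The part of the level of SHH targets in the spread among libraries was not tested. In SmoM2, libraries 1, 2 and 3 lay above all wild-type libraries in 6, 2 and 3 genes and below them in 9, 12 and 9, where 30.5% to 31.5% of all genes did either.

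Several cell type markers stood apart from wild type along with the groups. The counts of called markers stand beside 16.1% of all genes called higher and 17.2% lower in ShhN IUE. In SmoM2 these shares were 9.59% and 9.29%. The 8 radial glia markers summed to 1142 to 1385 CPM in ShhN IUE against 624 to 912 CPM in wild type, and to 1148 to 1261 CPM in SmoM2 against 633 to 863 CPM in wild type, and 6 of them were called higher in ShhN IUE and 5 in SmoM2. The 8 markers of striatal projection neurons summed to 32.4 to 52.6 CPM in ShhN IUE against 122 to 166 CPM in wild type, and to 42.5 to 53.1 CPM in SmoM2 against 114 to 155 CPM in wild type, with 7 called lower in each group. Markers of choroid plexus and ependyma, 5 in number, summed to 17.8 to 43.3 CPM in ShhN IUE against 5.24 to 9.04 CPM in wild type, and to 13.7 to 17.0 CPM in SmoM2 against 5.22 to 9.01 CPM in wild type. Most of each sum was Foxj1 alone, at 30.4, 41.4 and 14.8 CPM in ShhN IUE and 14.2, 12.9 and 10.9 CPM in SmoM2. Only 2 of the 5 had enough reads to be tested in ShhN IUE, with 1 called higher. In SmoM2 3 were tested and 2 called higher. Kl was not higher in ShhN IUE, at 0.203, 0.237 and 0.376 CPM against 0.259, 1.23 and 0.769 CPM in wild type. The sums of these 3 lists did not overlap with wild type in either group. The 8 markers of dividing cells summed to 443 to 502 CPM in ShhN IUE against 173 to 213 CPM in wild type, and to 372 to 521 CPM in SmoM2 against 174 to 206 CPM in wild type, so they were higher in both groups. The 10 endothelial markers summed to 242, 193 and 377 CPM in ShhN IUE libraries and 164, 266 and 170 CPM in wild type, and the 6 mural cell markers to 193, 169 and 261 CPM in ShhN IUE and 129, 215 and 152 CPM in wild type. Library 2 was the lowest ShhN IUE library for both vascular lists, and the ranges overlapped wild type. By single genes, 3 of the 6 mural and 1 of the 10 endothelial markers were called higher in ShhN IUE, and 0 of either list in SmoM2. The 8 markers of microglia and macrophages overlapped wild type by their sums in both groups, with 1 called higher in each. For endothelium and microglia the counts called thus lay near the shares over all genes. Meningeal markers, 7 in number, stood at 768 CPM in ShhN IUE library 3, 464 CPM in wild-type library 2 and 14.0 to 170 CPM in the other libraries of that table. In the SmoM2 table they stood at 190 to 392 CPM in SmoM2 and 13.9 to 464 CPM in wild type. Markers of red blood cells and of astrocytes overlapped wild type by their sums in both groups. Of 5 red blood cell markers tested, 0 were called in ShhN IUE and 2 were called higher in SmoM2. Of 6 astrocyte markers, 2 were called higher and 1 lower in ShhN IUE, and 1 higher in SmoM2. No marker of these lists was at 0 throughout. The part of each of these in the values below was not tested. Mitochondrially encoded genes took 1.36% to 1.59% of counts in ShhN IUE and 2.94% to 3.34% in wild type of that table, but the same wild-type libraries stood at 1.37% to 1.58% in the other table, so that difference depends on the table. Without these genes in the fit, 14 of the listed genes were again higher and 1 lower in ShhN IUE.

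The promoters of the genes called in ShhN IUE are shown because these genes moved together and the HIF core motif is short enough to be read in them. The core was searched as ACGTG or GCGTG on both strands, that is also as CACGT or CACGC on the strand printed, with overlapping matches counted apart. Promoter windows of 300 bases (250 before to 50 after a transcript start) come from RefSeq on build GRCm38.p6 and were found for 31 of the 33 genes, not for Slc2a3 and Ndrg1. The windows of the 5 called genes with the smallest adjusted p that hold the core follow, 5′ to 3′ along the gene, with the core in capitals. They lie at chr6:125165724-125166023 (minus strand), chr7:110627407-110627706 (plus strand), chr10:78009758-78010057 (minus strand), chr10:59951721-59952020 (minus strand) and chr17:46025114-46025413 (minus strand).
Gapdh: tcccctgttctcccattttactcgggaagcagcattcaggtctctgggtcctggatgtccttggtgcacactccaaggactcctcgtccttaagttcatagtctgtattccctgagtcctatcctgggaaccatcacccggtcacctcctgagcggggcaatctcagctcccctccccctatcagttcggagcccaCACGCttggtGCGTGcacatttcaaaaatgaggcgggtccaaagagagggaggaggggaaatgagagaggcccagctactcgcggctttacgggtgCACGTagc
Adm: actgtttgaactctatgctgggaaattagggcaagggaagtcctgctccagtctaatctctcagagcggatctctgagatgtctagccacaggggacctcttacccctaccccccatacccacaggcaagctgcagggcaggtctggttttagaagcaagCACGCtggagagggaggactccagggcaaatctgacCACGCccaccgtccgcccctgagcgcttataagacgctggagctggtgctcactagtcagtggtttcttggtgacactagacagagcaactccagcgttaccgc
Pfkl: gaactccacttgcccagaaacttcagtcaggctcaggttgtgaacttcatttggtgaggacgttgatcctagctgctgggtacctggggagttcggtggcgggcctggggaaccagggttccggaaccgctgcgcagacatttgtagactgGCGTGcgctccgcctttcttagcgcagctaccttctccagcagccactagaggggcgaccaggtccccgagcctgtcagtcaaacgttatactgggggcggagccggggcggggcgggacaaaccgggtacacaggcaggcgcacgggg
Ddit4: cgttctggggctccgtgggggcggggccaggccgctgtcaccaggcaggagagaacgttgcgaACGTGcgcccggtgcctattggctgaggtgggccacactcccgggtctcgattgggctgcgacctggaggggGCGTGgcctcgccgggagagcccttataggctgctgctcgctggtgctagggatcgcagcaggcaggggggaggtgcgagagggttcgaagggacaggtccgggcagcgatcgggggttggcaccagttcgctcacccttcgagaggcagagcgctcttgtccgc
Vegfa: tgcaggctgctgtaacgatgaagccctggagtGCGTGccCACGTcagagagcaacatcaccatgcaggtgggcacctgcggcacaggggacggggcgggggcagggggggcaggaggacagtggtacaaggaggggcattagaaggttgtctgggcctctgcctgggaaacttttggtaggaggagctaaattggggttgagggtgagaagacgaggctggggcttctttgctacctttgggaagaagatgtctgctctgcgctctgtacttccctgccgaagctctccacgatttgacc
Gapdh held 3 cores, Adm, Ddit4 and Vegfa 2 each and Pfkl 1. The Vegfa window belongs to a start inside the gene, and the window at its upstream start held no core. Across the list, 29 of 31 genes had the core in at least 1 window, and 34 of 41 windows (82.9%) held it, against 14380 of 32851 windows of the whole table (43.8%). The genes without it were Gpi1 and Tpi1, both called higher in ShhN IUE. Genes that did not pass there, such as Hk1, Pfkp and Ldhb, held it, so the core did not mark off the called genes. With ACGTG alone the shares were 58.5% of the windows of these genes and 19.6% of all windows. G and C made up 63.4% of the bases in the windows of these genes and 53.8% in all windows, and no test was made. A match describes letters only and is not shown to be a bound site.

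Both secreted signals were higher in ShhN IUE. Vegfa (chr17:46016993-46032377, minus strand, build GRCm38), which drives the growth of blood vessels, stood at 201, 103 and 291 CPM in ShhN IUE libraries 1, 2 and 3, against 75.5, 58.3 and 49.5 CPM in wild type. Every ShhN IUE library lay above every wild-type library, with library 2 nearest to them. The log2 fold change was 1.70 ± 0.34 (SE, n = 3 each, edgeR adjusted p = 0.00794). Adm (chr7:110627661-110629820, plus strand), the vasodilator peptide adrenomedullin, had 6.41, 4.33 and 11.2 CPM in ShhN IUE and 1.92, 1.36 and 1.32 CPM in wild type, a log2 fold change of 2.24 ± 0.39 (adjusted p = 0.0046). The groups of Adm did not overlap either, and the third ShhN IUE library was again the highest. In SmoM2 neither passed the test. Vegfa had 49.6, 50.5 and 50.6 CPM in SmoM2 and 71.6, 57.6 and 53.4 CPM in wild type (log2 fold change -0.28 ± 0.12, adjusted p = 0.149). Adm had 1.03, 0.847 and 0.959 CPM in SmoM2 and 1.91, 1.46 and 1.31 CPM in wild type (log2 fold change -0.72 ± 0.27, adjusted p = 0.0988). For both genes all 3 SmoM2 libraries lay below all wild-type libraries of their table.

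Glucose enters brain cells through Slc2a1 (GLUT1, the carrier of the blood-brain barrier and glia) and Slc2a3 (GLUT3, the neuronal carrier). Slc2a1 was at 92.9, 52.8 and 154 CPM in ShhN IUE libraries against 35.5, 50.8 and 39.1 CPM in wild type, a log2 fold change of 1.26 ± 0.35 (adjusted p = 0.0253). The lowest ShhN IUE library, again the second, lay just above the highest wild-type library. The call was lost when library 1 of ShhN IUE, or 1 or 3 of wild type, was left out, with adjusted p of 0.0537 to 0.0837. Slc2a3 overlapped with wild type and did not pass, with 73.1, 52.9 and 93.2 CPM in ShhN IUE and 45.0, 58.1 and 54.9 CPM in wild type (log2 fold change 0.47 ± 0.21, adjusted p = 0.111). In SmoM2 their log2 fold changes were -0.12 ± 0.15 for Slc2a1 and -0.02 ± 0.12 for Slc2a3, neither past the threshold. Slc2a1 stood at 43.4, 34.5 and 37.6 CPM in SmoM2 against 35.6, 51.0 and 39.2 CPM in wild type, so the groups overlapped.

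Lactate leaves glycolytic cells mainly through Slc16a3 (MCT4), whereas Slc16a1 (MCT1) carries it at the blood-brain barrier and in glia. Slc16a3 showed the largest log2 fold change of the 32 genes, 3.02 ± 0.62 (adjusted p = 0.00851), with 17.4, 4.45 and 28.1 CPM in ShhN IUE against 2.70, 2.09 and 1.32 CPM in wild type. It was scarce in wild type, and the groups did not overlap. Slc16a1 did not pass, at 19.9, 22.6 and 20.2 CPM in ShhN IUE and 21.9, 47.2 and 34.3 CPM in wild type (log2 fold change -0.72 ± 0.25, adjusted p = 0.0562). Wild-type library 1 alone overlapped with ShhN IUE. Without that library Slc16a1 was called lower, at a log2 fold change of -0.96 and an adjusted p of 0.0104. By DESeq2 on all libraries it was called lower too (adjusted p = 0.0168). The ratio of Slc16a3 to Slc16a1 in FPKM was 0.444, 0.0998 and 0.704 in ShhN IUE and 0.0623, 0.0224 and 0.0195 in wild type. In SmoM2 neither passed. Slc16a3 had 2.24, 1.91 and 2.03 CPM in SmoM2 and 2.43, 1.59 and 1.31 CPM in wild type (log2 fold change 0.21 ± 0.28, adjusted p = 0.641). Slc16a1 had 35.0, 36.7 and 32.1 CPM in SmoM2 and 21.8, 47.1 and 34.1 CPM in wild type (log2 fold change 0.01 ± 0.24, adjusted p = 0.984).

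**Figure D2:**
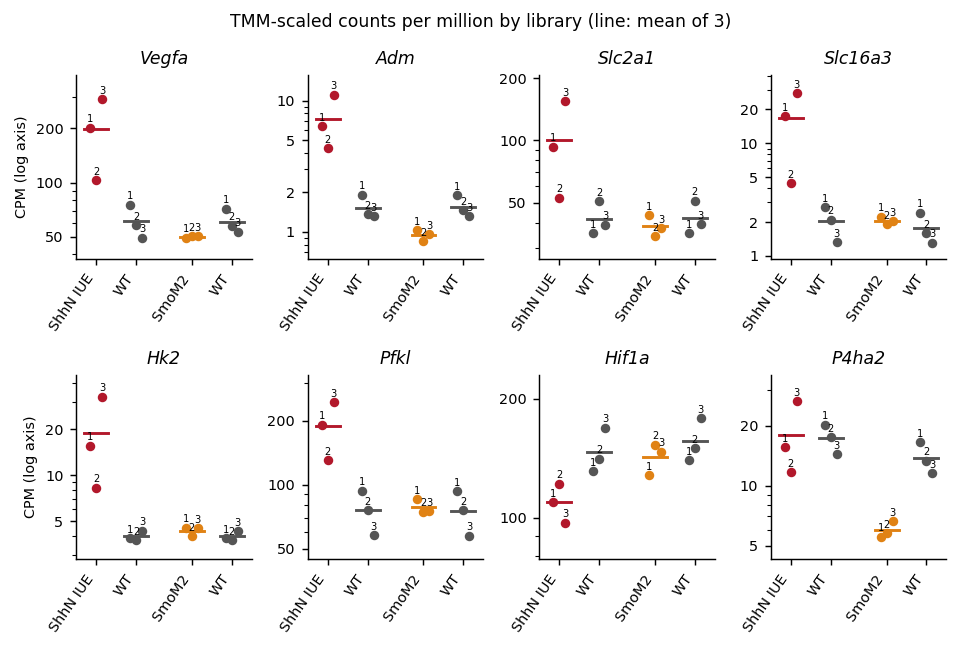
TMM-scaled CPM of 8 of the genes on a log axis, 1 point per library with its number and a line at the mean of 3, each group beside the wild type of its own table. ShhN IUE points of Vegfa, Adm, Slc16a3, Hk2 and Pfkl lie above all wild-type points and those of Hif1a below, with library 2 the nearest to wild type, while P4ha2 is low in SmoM2.

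The upper steps of glycolysis split by isozyme. Hexokinase traps glucose in the cell, and its inducible form Hk2 (chr6:82725025-82774454, minus strand) had 15.6, 8.31 and 32.5 CPM in ShhN IUE against 3.89, 3.77 and 4.34 CPM in wild type, a log2 fold change of 2.23 ± 0.45 (adjusted p = 0.0081). The form that prevails in brain, Hk1, had 315, 295 and 240 CPM in ShhN IUE and 319, 266 and 259 CPM in wild type, with a log2 fold change of 0.01 ± 0.13 (adjusted p = 0.951). Hk2 was separated from wild type in every library, and Hk1 was not. The FPKM ratio of Hk2 to Hk1 was 0.0894, 0.0508 and 0.244 in ShhN IUE libraries against 0.0220, 0.0256 and 0.0302 in wild type, so Hk1 remained the more abundant form in every library. In SmoM2, Hk2 had 4.55, 3.98 and 4.53 CPM against 3.87, 3.78 and 4.32 CPM in wild type, and Hk1 268, 258 and 258 CPM against 318, 270 and 259 CPM in wild type. Their log2 fold changes of 0.13 ± 0.18 and -0.11 ± 0.09 did not pass (adjusted p = 0.67 for Hk2 and 0.436 for Hk1).

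Phosphofructokinase, the committing step, showed the same kind of split. Pfkl, the liver form, stood at 192, 130 and 245 CPM in ShhN IUE against 93.7, 76.1 and 58.0 CPM in wild type, a log2 fold change of 1.32 ± 0.25 (adjusted p = 0.00623). The platelet form Pfkp, abundant in brain, had 449, 364 and 442 CPM in ShhN IUE and 555, 436 and 281 CPM in wild type (log2 fold change -0.02 ± 0.22, adjusted p = 0.953). All ShhN IUE libraries lay above wild type for Pfkl, while those of Pfkp lay within the wild-type range. The FPKM ratio of Pfkp to Pfkl was 0.960, 1.15 and 0.741 in ShhN IUE libraries against 2.43, 2.35 and 1.99 in wild type, so the groups did not overlap. In SmoM2 the ratios were 1.28, 2.43 and 2.20, against 2.41, 2.53 and 1.96 in wild type of that table. Pfkl had 85.3, 74.8 and 74.8 CPM in SmoM2 against 93.1, 75.9 and 57.5 CPM in wild type, and did not pass (log2 fold change 0.05 ± 0.17, adjusted p = 0.856).

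Gpi1, which turns glucose 6-phosphate into fructose 6-phosphate, was at 528, 230 and 663 CPM in ShhN IUE libraries and 188, 148 and 166 CPM in wild type, a log2 fold change of 1.503 ± 0.33 (adjusted p = 0.0114). Tpi1, which interconverts the triose phosphates, was at 242, 138 and 293 CPM in ShhN IUE and 126, 103 and 80.3 CPM in wild type, a log2 fold change of 1.12 ± 0.27 (adjusted p = 0.0158). Neither gene overlapped between the groups, though the second ShhN IUE library of Tpi1 lay only a little above the highest wild-type library. Without wild-type library 3 the adjusted p of Tpi1 was 0.0593. Aldoa, the aldolase between them, did not pass (233, 157 and 364 CPM in ShhN IUE against 182, 144 and 119 CPM in wild type, log2 fold change 0.76 ± 0.29, adjusted p = 0.0723). In SmoM2 the log2 fold changes were -0.22 ± 0.12 for Gpi1, -0.34 ± 0.13 for Aldoa and -0.20 ± 0.16 for Tpi1. Gpi1 had 172, 161 and 158 CPM in SmoM2 and 226, 181 and 164 CPM in wild type, and Tpi1 103, 93.7 and 100 CPM in SmoM2 and 137, 119 and 85.6 CPM in wild type. Neither passed (adjusted p = 0.243 for Gpi1 and 0.406 for Tpi1), but Aldoa and Tpi1 were called lower in SmoM2 when wild-type library 3 was left out.

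**Figure D3:**
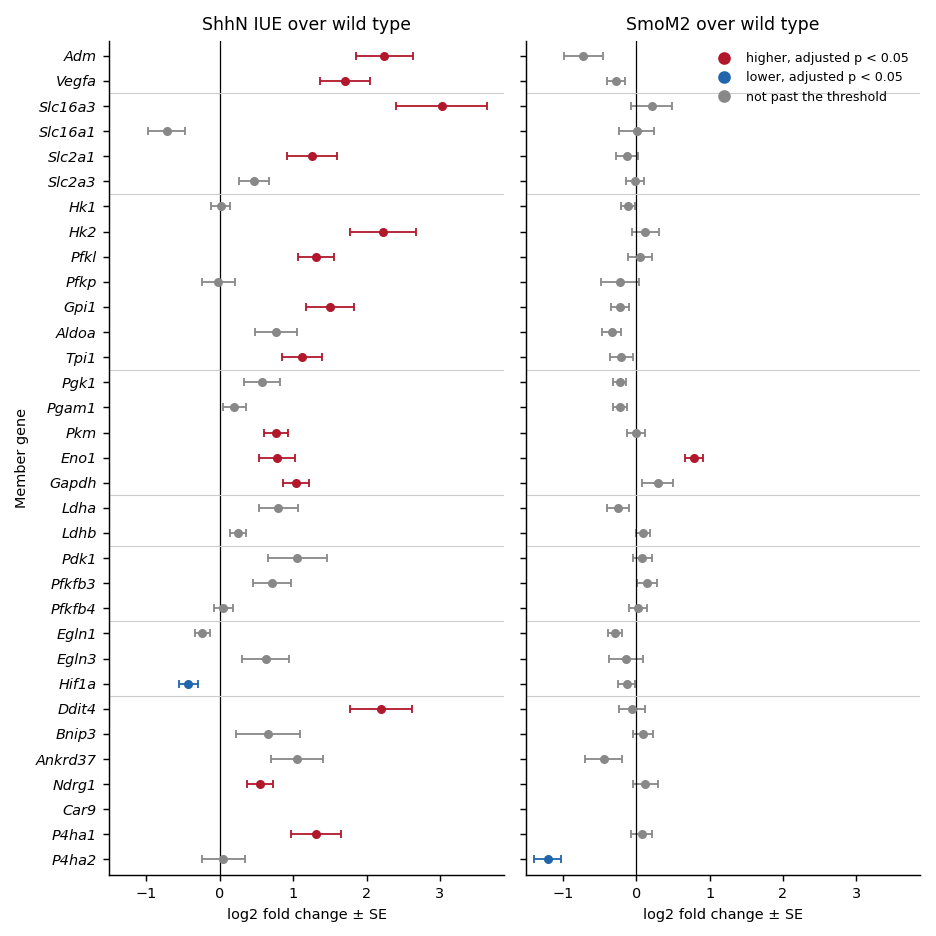
Log2 fold change with its SE for the 32 tested genes, over wild type of the same table, in ShhN IUE (left) and SmoM2 (right); red and blue mark genes past an adjusted p of 0.05. Most ShhN IUE values lie right of 0, up to 3.02 for Slc16a3, and most SmoM2 values lie near 0 apart from Eno1 at 0.79 and P4ha2 at -1.21; Car9 was not tested.

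In lower glycolysis, 3 of 5 genes were called higher in ShhN IUE, beside 16.1% of all genes tested. Pkm, pyruvate kinase and the most abundant of the 33 genes by FPKM in wild type, had 804, 665 and 964 CPM in ShhN IUE against 567, 449 and 411 CPM in wild type, a log2 fold change of 0.77 ± 0.17 (adjusted p = 0.0106). Gapdh, the oxidising step, had 22.7, 16.9 and 21.5 CPM in ShhN IUE and 11.5, 9.04 and 9.17 CPM in wild type, a log2 fold change of 1.04 ± 0.18 (adjusted p = 0.00456). Groups did not overlap for either gene. Gapdh is usually among the most abundant RNAs of a cell, yet the deposited level averaged 1.13 FPKM in wild type of this table and 0.528 FPKM in wild type of the other. It has 7 near-identical copies in the tables (coding sequence at least 95% identical over at least 200 bases), so its count is uncertain. With their counts added, its log2 fold change was 0.80 ± 0.16 (adjusted p = 0.00779). In SmoM2, Gapdh had 5.95, 6.48 and 4.56 CPM against 5.27, 4.0 and 4.59 CPM in wild type (log2 fold change 0.29 ± 0.21, adjusted p = 0.364), and Pkm 494, 435 and 470 CPM against 550, 450 and 399 CPM in wild type (log2 fold change 0.00 ± 0.12, adjusted p = 0.998). Pgk1 and Pgam1, the phosphoglycerate enzymes, did not pass in either group, at log2 fold changes of 0.57 ± 0.24 and 0.20 ± 0.16 in ShhN IUE and -0.23 ± 0.09 and -0.22 ± 0.09 in SmoM2.

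Eno1, enolase, was called higher in both groups. It had 99.1, 65.8 and 132 CPM in ShhN IUE against 68.7, 53.3 and 50.6 CPM in wild type, a log2 fold change of 0.78 ± 0.24 (adjusted p = 0.0388). The groups overlapped at ShhN IUE library 2, and the call was lost, with adjusted p of 0.0884 to 0.122, when libraries 1 or 3 of ShhN IUE or 2 or 3 of wild type were left out in turn. In SmoM2 it had 116, 95.2 and 86.8 CPM against 58.5, 59.3 and 54.4 CPM in wild type, with no overlap and a log2 fold change of 0.79 ± 0.12 (adjusted p = 0.00385). The SmoM2 call changed with a near-identical copy. Eno1b, a gene without introns whose transcript matches the Eno1 coding sequence at 100% over 1302 bases, received more reads than Eno1 in wild type. It had 67.9, 62.6 and 64.0 CPM in SmoM2 against 129, 92.3 and 84.9 CPM in wild type, all SmoM2 libraries below all wild-type ones. Added together, Eno1 and Eno1b had 184, 158 and 151 CPM in SmoM2 and 186, 152 and 139 CPM in wild type, a log2 fold change of 0.05 ± 0.13 (adjusted p = 0.815). In ShhN IUE their sum was 325, 190 and 428 CPM against 198, 146 and 136 CPM in wild type (log2 fold change 0.98 ± 0.28, adjusted p = 0.0283). The sources used here do not say how reads shared by both genes were assigned.

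**Figure D4:**
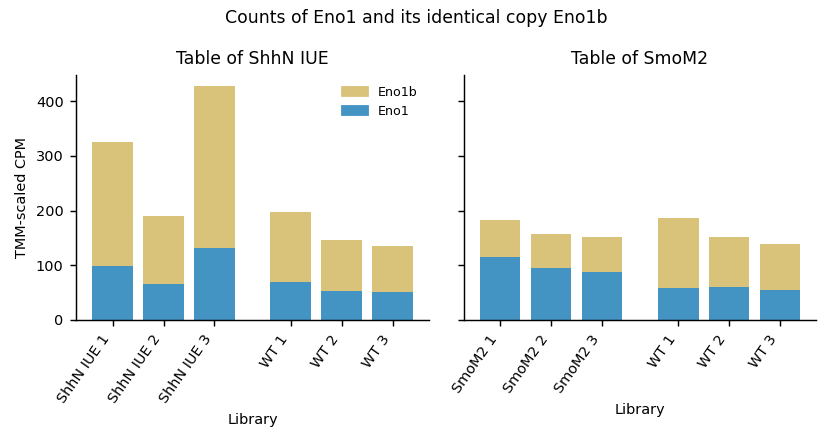
TMM-scaled CPM of Eno1 (lower part of each bar) and Eno1b (upper part) in every library, by table. In SmoM2 the Eno1 part is larger and the Eno1b part smaller than in wild type while the sums, 151 to 184 CPM in SmoM2 and 139 to 186 CPM in wild type, lie close together; in ShhN IUE both parts are larger.

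Lactate dehydrogenase turns pyruvate into lactate, its A subunit favouring that direction and its B subunit the reverse. Ldha had 408, 250 and 543 CPM in ShhN IUE and 279, 228 and 182 CPM in wild type, and fell just short of the threshold (log2 fold change 0.80 ± 0.27, adjusted p = 0.0513). Library 2 of ShhN IUE lay inside the wild-type range, and without it the log2 fold change was 1.06 and the adjusted p 0.0108. By DESeq2 on all libraries Ldha was called higher (adjusted p = 0.00591). Ldhb had 114, 129 and 128 CPM in ShhN IUE and 116, 97.7 and 98.0 CPM in wild type (log2 fold change 0.25 ± 0.11, adjusted p = 0.11). Only wild-type library 1 overlapped with ShhN IUE, and without it Ldhb was called higher (adjusted p = 0.04995). The FPKM ratio of Ldha to Ldhb was 1.53, 0.830 and 1.82 in ShhN IUE against 1.03, 1.00 and 0.799 in wild type, the second ShhN IUE library lying within the wild-type range. In SmoM2, Ldha had 220, 187 and 195 CPM against 284, 244 and 186 CPM in wild type, and Ldhb 116, 104 and 111 CPM against 116, 97.8 and 97.6 CPM in wild type. Neither passed, at log2 fold changes of -0.25 ± 0.15 for Ldha and 0.09 ± 0.10 for Ldhb (adjusted p = 0.283 for Ldha and 0.563 for Ldhb). The Ldha to Ldhb ratio was 0.813, 0.768 and 0.753 in SmoM2 and 1.05, 1.07 and 0.817 in wild type, all SmoM2 libraries below wild type.

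None of the 3 regulators of glycolytic flux passed in either group by edgeR or limma-voom. In ShhN IUE 2 of them had an unadjusted p under 0.05 and DESeq2 called 1, Pfkfb3, while in SmoM2 both counts were 0. Pdk1, which shuts pyruvate out of the mitochondrial pyruvate dehydrogenase, had 66.7, 25.9 and 98.4 CPM in ShhN IUE and 33.8, 32.8 and 25.1 CPM in wild type (log2 fold change 1.06 ± 0.40, adjusted p = 0.0764). ShhN IUE library 2 stood among the wild-type libraries while the others were at least 66.7 CPM. Pfkfb3, which makes the activator fructose 2,6-bisphosphate, had 154, 80.4 and 80.0 CPM in ShhN IUE and 58.5, 58.8 and 75.1 CPM in wild type, apart in all libraries but short of the threshold (log2 fold change 0.71 ± 0.26, adjusted p = 0.0667). Pfkfb4 had a log2 fold change of 0.05 ± 0.13. In SmoM2 the values of the 3 genes lay between 0.03 and 0.15.

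Hif1a itself (chr12:73901375-73947530, plus strand) was the gene called lower in ShhN IUE. It had 109, 122 and 96.9 CPM in ShhN IUE against 131, 141 and 169 CPM in wild type, a log2 fold change of -0.43 ± 0.13 (adjusted p = 0.0371). All ShhN IUE libraries lay below all wild-type libraries, and library 3, with the highest levels of most of the other genes, had the lowest Hif1a. Leaving out libraries 1 or 3 of ShhN IUE, or 2 or 3 of wild type, in turn ended the call, with adjusted p of 0.0683 to 0.111. In SmoM2 it had 128, 153 and 147 CPM against 140, 150 and 179 CPM in wild type, overlapping, with a log2 fold change of -0.13 ± 0.12 (adjusted p = 0.47). Exons of other genes overlap Hif1a on both strands in the GENCODE annotation. The oxygen-sensing hydroxylases did not pass. Egln1, the main one, lay below all wild-type libraries in every library of both groups, at log2 fold changes of -0.24 ± 0.10 in ShhN IUE and -0.29 ± 0.10 in SmoM2 (adjusted p = 0.115 for ShhN IUE and 0.0748 for SmoM2). Egln3, itself a HIF target, had 26.6, 22.3 and 46.2 CPM in ShhN IUE and 20.3, 27.4 and 13.7 CPM in wild type (log2 fold change 0.63 ± 0.32, adjusted p = 0.163).

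Among the other hypoxia-induced genes, Ddit4, an inhibitor of mTORC1, stood highest above wild type. It had 172, 86.2 and 326 CPM in ShhN IUE against 35.6, 50.5 and 41.2 CPM in wild type, a log2 fold change of 2.19 ± 0.42 (adjusted p = 0.0067). Ndrg1, a stress-induced gene linked to cell differentiation, had 179, 169 and 217 CPM in ShhN IUE and 157, 132 and 96.1 CPM in wild type, a smaller log2 fold change of 0.55 ± 0.18 (adjusted p = 0.0484). Groups did not overlap in either gene, but Ndrg1 lost its call when any library other than wild-type library 1 was left out, with adjusted p of 0.0562 to 0.114. In SmoM2, Ddit4 had 47.7, 31.7 and 41.0 CPM against 35.1, 49.9 and 40.6 CPM in wild type, and Ndrg1 153, 131 and 141 CPM against 162, 132 and 95.8 CPM in wild type. Both overlapped with wild type, at log2 fold changes of -0.06 ± 0.18 for Ddit4 and 0.12 ± 0.17 for Ndrg1 (adjusted p = 0.84 for Ddit4 and 0.658 for Ndrg1). Ankrd37, a direct HIF target in human cells, was separated but did not pass (6.15, 3.56 and 9.39 CPM in ShhN IUE against 3.53, 2.77 and 2.91 CPM in wild type, log2 fold change 1.05 ± 0.36, adjusted p = 0.0528). Bnip3, a mitophagy receptor, was spread widely, at 36.2, 17.4 and 74.6 CPM in ShhN IUE and 31.3, 27.2 and 22.5 CPM in wild type (log2 fold change 0.66 ± 0.44, adjusted p = 0.276). Car9, the cell-surface carbonic anhydrase induced strongly in tumours, had 11, 1 and 7 reads in ShhN IUE and 1, 1 and 0 reads in wild type of that table, and 6, 1 and 6 reads in SmoM2 and 2, 3 and 0 reads in wild type, below the filter on low counts. It was therefore not tested.

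The collagen prolyl 4-hydroxylase subunits P4ha1 and P4ha2 parted between the groups. P4ha1 had 56.6, 34.4 and 99.4 CPM in ShhN IUE against 21.9, 24.1 and 30.7 CPM in wild type, a log2 fold change of 1.31 ± 0.35 (adjusted p = 0.0218). It did not overlap with wild type, and without wild-type library 1 or 2 its adjusted p was 0.0714 or 0.0663. P4ha2 had 15.6, 11.6 and 26.6 CPM in ShhN IUE and 20.2, 17.4 and 14.4 CPM in wild type, spread around the same level (log2 fold change 0.05 ± 0.29, adjusted p = 0.917). In SmoM2 it was P4ha2 (chr11:54100095-54131665, plus strand) that differed, at 5.54, 5.76 and 6.63 CPM against 16.5, 13.3 and 11.5 CPM in wild type, a log2 fold change of -1.21 ± 0.18 (adjusted p = 0.00371). No SmoM2 library reached the lowest wild-type one, and the call held in every alternative that could be run for it, though the wild-type libraries have 824 P4ha2 reads here but 1035 in the ShhN IUE table. P4ha1 had 24.8, 28.9 and 25.3 CPM in SmoM2 and 21.3, 23.9 and 29.9 CPM in wild type (log2 fold change 0.07 ± 0.14, adjusted p = 0.761). The FPKM ratio of P4ha2 to P4ha1 was thus lower in both groups, at 0.212, 0.260 and 0.205 in ShhN IUE against 0.709, 0.556 and 0.360 in wild type, and at 0.172, 0.153 and 0.202 in SmoM2 against 0.597, 0.428 and 0.297 in wild type. In ShhN IUE the gene past the threshold was P4ha1, and in SmoM2 it was P4ha2.

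**Figure D5:**
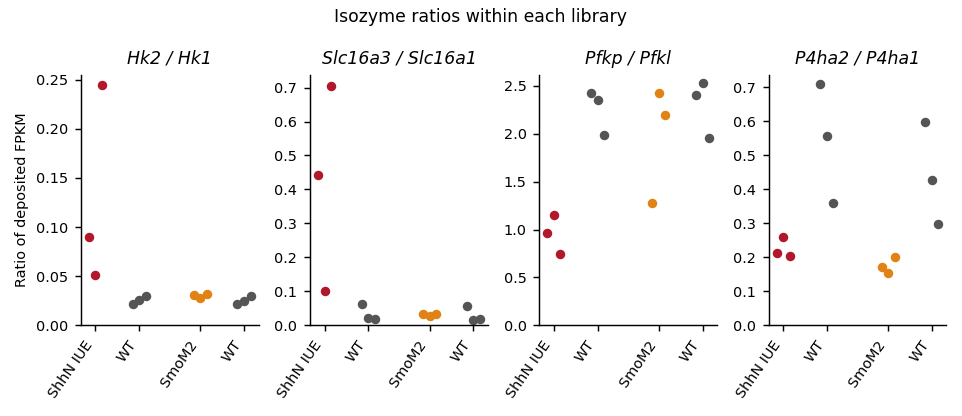
Ratios of deposited FPKM between related genes within each library, 1 point per library, each group beside the wild type of its own table. Hk2/Hk1 and Slc16a3/Slc16a1 are highest and Pfkp/Pfkl lowest in ShhN IUE, and P4ha2/P4ha1 is below wild type in both groups.

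SmoM2 was set directly against ShhN IUE for the 23 genes whose wild-type counts agreed between the tables (log2 ratio within 0.1), in 1 fit over all 9 libraries. Of these, 11 were lower in SmoM2, 1 was higher and 11 did not pass, beside 8.07% of 12349 genes called lower and 8.45% called higher. The median log2 fold change of SmoM2 over ShhN IUE was -0.78, against -0.0057 over all genes tested. Levels in this fit are relative to the genes in it and are higher than those above. Vegfa averaged 76.2 ± 0.668 CPM in SmoM2 and 303 ± 142 CPM in ShhN IUE (SD, n = 3 each), a log2 fold change of -1.99 ± 0.29 (adjusted p = 0.00233). Adm averaged 1.43 ± 0.14 CPM in SmoM2 and 11.1 ± 5.25 CPM in ShhN IUE, a log2 fold change of -2.95 ± 0.35 (adjusted p = 0.000868). The SD of both genes was far larger in ShhN IUE, where library 2 lay low. The others called lower were Hk2, Ddit4, Pfkl, Pkm, Ankrd37, Slc2a1, P4ha1, Ldha and Pgk1, with log2 fold changes of -0.81 to -2.28. The lactate carrier Slc16a1 was the one called higher, at 52.5 ± 3.65 CPM in SmoM2 and 31.9 ± 2.28 CPM in ShhN IUE (log2 fold change 0.72 ± 0.22, adjusted p = 0.0471), and that call was lost when any SmoM2 or ShhN IUE library was left out, with adjusted p of 0.0689 to 0.136. The number called lower was 8, 7 and 6 without SmoM2 library 1, 2 or 3, 9 when library 1 of ShhN IUE was left out and 14 when its library 2 was, with Hif1a then the 1 gene called higher. Adm, Vegfa, Hk2, Ddit4, Pfkl and Pkm were called in each of these, while Ankrd37, Slc2a1, P4ha1, Ldha and Pgk1 were not in at least 1 of them. Eno1 was level between the groups (log2 fold change -0.01 ± 0.21, adjusted p = 0.988), but with Eno1b added its log2 fold change was -0.95 (adjusted p = 0.0235). The wild-type counts of the other 10 genes differed between the tables by more than this. With agreement within 0.2 as the limit, 29 genes were tested and 15 were lower, beside 8.41% of all genes, the added ones being Slc16a3 (log2 fold change -3.01 ± 0.53, adjusted p = 0.00489), Gpi1 (-1.54 ± 0.29, adjusted p = 0.00666), Tpi1 (-1.19 ± 0.24, adjusted p = 0.00841) and Aldoa (-0.92 ± 0.24, adjusted p = 0.0267). Pdk1 and Bnip3 did not pass there, and Pfkfb4, Gapdh, Car9 and P4ha2 were tested under neither limit.

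Genes of the same pathways outside the list of 33 were taken from 4 lists of 109 genes, of which 101 were tested in ShhN IUE and 102 in SmoM2. In ShhN IUE 20 were higher and 19 lower, with a median log2 fold change of 0.09 (23 and 14 without library 2), and in SmoM2 9 were higher and 7 lower, with a median of 0.01. The shares over all genes were 16.1% higher and 17.2% lower in ShhN IUE, and 9.59% higher and 9.29% lower in SmoM2. These lists, too, were drawn up with earlier results known.

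Among 47 other hypoxia-induced genes in ShhN IUE, 10 were higher and 2 lower. Gys1, muscle-type glycogen synthase, averaged 42.9 ± 13.6 CPM in ShhN IUE and 13.6 ± 2.06 CPM in wild type (SD, n = 3 each), a log2 fold change of 1.65 ± 0.23 (adjusted p = 0.00207). Mxi1, an antagonist of MYC, had a log2 fold change of 0.89 ± 0.21 (adjusted p = 0.0141) and Ankzf1, a mitochondrial stress factor, one of 0.68 ± 0.13 (adjusted p = 0.0068). The transferrin receptor Tfrc, which hypoxia raises in many cells, was lower, at 66.5 ± 9.6 CPM in ShhN IUE and 184 ± 33.4 CPM in wild type (log2 fold change -1.47 ± 0.16, adjusted p = 0.00101). In SmoM2 4 of the 47 were higher and 3 lower, Gys1 (log2 fold change 0.92 ± 0.15) and Mxi1 (0.86 ± 0.12) among the higher ones, and Bhlhe40 (-0.79 ± 0.16) and Higd1a (-0.65 ± 0.12) among the lower.

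Of 14 other parts of the HIF pathway, 2 were higher and 4 lower in ShhN IUE, and none passed in SmoM2 by edgeR, DESeq2 or limma-voom. Egln2, another prolyl hydroxylase, had a log2 fold change of 0.43 ± 0.11 (adjusted p = 0.0177). Of the VHL ligase, Tceb2 (elongin B) and Cul2 (cullin 2) were lower, with log2 fold changes of -0.53 ± 0.11 (adjusted p = 0.0083) and -0.56 ± 0.14 (adjusted p = 0.0196). Vhl itself (-0.13 ± 0.19, adjusted p = 0.615) and Rbx1 (-0.09 ± 0.11, adjusted p = 0.563), named after their values were seen to complete the ligase, did not pass. Tceb1 (elongin C) was called lower too (-1.01 ± 0.10, adjusted p = 0.000866), but that call rests on the table. It averaged 51.9 ± 1.49 CPM in ShhN IUE against 104 ± 8.28 CPM in wild type, whereas these wild-type libraries averaged 56.4 ± 8.57 CPM in the SmoM2 table. The wild-type counts of Egln2 and Cul2 also differed between the tables, by log2 ratios of 0.11 and -0.116. At an unadjusted p under 0.05 the SmoM2 count of these 14 was 2. Hif3a, an alternative alpha subunit, with a log2 fold change of 0.73 ± 0.26, came nearest there (adjusted p = 0.0855), but its wild-type libraries have 263 reads there and 877 in the ShhN IUE table, where Hif3a was the other gene called higher.

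Of the other glycolytic isozymes and transporters, 6 were higher and 7 lower among 27 tested in ShhN IUE, and 3 were higher and 3 lower among 28 in SmoM2. Aldoc, the aldolase of astrocytes and radial glia, averaged 155 ± 4.24 CPM in ShhN IUE and 81.4 ± 11.2 CPM in wild type, a log2 fold change of 0.93 ± 0.12 (adjusted p = 0.00143), and one of 0.57 ± 0.13 in SmoM2 (adjusted p = 0.0222). Slc2a4, the insulin-regulated glucose carrier, and Pck2, mitochondrial phosphoenolpyruvate carboxykinase, were higher in ShhN IUE, at log2 fold changes of 1.46 ± 0.25 and 1.40 ± 0.27. Neuronal enolase, Eno2, averaged 56.7 ± 5.11 CPM in SmoM2 and 120 ± 13 CPM in wild type (log2 fold change -1.08 ± 0.11, adjusted p = 0.00082), with 7188 wild-type reads there but 5668 in the ShhN IUE table. Pyruvate carboxylase, Pcx, averaged 87.0 ± 5.98 CPM in SmoM2 and 39.3 ± 3.42 CPM in wild type (log2 fold change 1.15 ± 0.10, adjusted p = 0.000495).

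Of 13 genes for the entry of pyruvate into mitochondria, 6 were lower and 2 higher in ShhN IUE. Subunits of pyruvate dehydrogenase led them, with log2 fold changes of -0.83 ± 0.13 for Dld (adjusted p = 0.00301), -0.57 ± 0.10 for Pdha1 (adjusted p = 0.00464) and -0.57 ± 0.12 for Dlat (adjusted p = 0.0091). Pdk2, a kinase that inactivates that enzyme, was higher (log2 fold change 0.99 ± 0.17, adjusted p = 0.00421). In SmoM2, 1 was lower (Pdha1, log2 fold change -0.37 ± 0.09, adjusted p = 0.0248) and 2 were higher (Pdk2 at 0.51 ± 0.14 and Pdk4 at 0.70 ± 0.20, adjusted p = 0.0341 and 0.0454).

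In the authors' deposited table for ShhN IUE, 14 of the 33 genes carry the mark UP, none the mark DOWN, and 21 have a q-value under 0.05. Of the 14 marked there, 11 are among the 14 called higher here, while Pdk1, Ankrd37 and Car9 are marked UP only in the authors' deposited table, and Pkm, Eno1 and Ndrg1 were called higher only here. Car9, left untested here for its few reads, has a q-value of 0.0337 in the authors' deposited table. In the authors' deposited table for SmoM2, 1 of them, P4ha2, is marked DOWN and 2 have a q-value under 0.05. The shares of all genes with these marks or q-values were not computed, so the counts stand without a background.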

How the data were processed

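RNA from 9 cortex libraries of newborn mice was measured by bulk sequencing, with groups and library numbers read from the titles. The authors deposited 1 table for ShhN IUE with wild type and 1 for SmoM2 with wild type, holding the same 3 wild-type libraries. Per the file headers, both give a read count and an FPKM value for each gene and library, and a q-value for a test the authors ran. Tools named in the submitters' processing notes are HISAT2, StringTie and edgeR, and builds named there are mm10 and GRCm38.p4. Versions, strand use and the handling of reads shared by gene copies are not given in the sources used here.

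The 33 genes and all lists were chosen with earlier results of these data known. Counts were tested in R 4.3.3 with edgeR 4.0.16 (quasi-likelihood F test, TMM scaling, filterByExpr by group), each group against the wild type of its own table because wild-type counts differed between tables. Adjusted p is by Benjamini-Hochberg over all genes, threshold 0.05, and SE was computed from the fold change (log2) and its F statistic. SmoM2 was tested against ShhN IUE in 1 fit of 9 libraries over the genes whose summed wild-type counts agreed (log2 ratio, 5 added, within 0.1). The functions were tested on simulated counts. Genes given library by library are those past the threshold against wild type, and always Hif1a, Vegfa, Slc2a1, Hk1, Hk2, Ldha, Ldhb, Slc16a1 and Slc16a3. Of each list outside the 33, up to 4 genes with the smallest adjusted p and a mean of at least 5 CPM are named, of which some are left out. Library positions use log2(CPM + 1).

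Near-identical copies were found with blastn 2.17.0 among GENCODE M21 transcripts. Promoter windows are from RefSeq (GRCm38.p6). Alternatives were RLE and upper quartile scaling, no filter or 1 CPM in 3 libraries, DESeq2 1.42.0, voom of limma 3.58.1, a replicate block, leaving out each library, and genes with agreeing wild-type counts. Adding the counts of copies to their gene, and leaving out mitochondrially encoded genes, were chosen after seeing the data. Library totals were 15376071 to 26923127 counts, and the number of libraries limits the precision.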

Additional observations from a re-analysis of the deposited data

Results flagged for a closer look

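For 12 of the 23 genes that entered the direct test, SmoM2 and ShhN IUE differed, so that their changes relative to wild type were not alike. Over all 12349 genes in that test, 8.07% were called lower in SmoM2 and 8.45% higher. The other 10 of the 33 genes were not in it. Log2 fold changes of SmoM2 over ShhN IUE follow, each with its adjusted p from edgeR. The secreted signal Adm differed by -2.95 (adjusted p = 0.000868) and Vegfa by -1.99 (adjusted p = 0.00233). In glycolysis and glucose uptake, Hk2 differed by -2.11 (adjusted p = 0.00601), Slc2a1 by -1.38 (adjusted p = 0.0131), Pfkl by -1.28 (adjusted p = 0.00413), Ldha by -1.004 (adjusted p = 0.0175), Pgk1 by -0.81 (adjusted p = 0.0268) and Pkm by -0.81 (adjusted p = 0.00534). Among other hypoxia-induced genes, Ddit4 differed by -2.28 (adjusted p = 0.00392), Ankrd37 by -1.54 (adjusted p = 0.0126) and P4ha1 by -1.28 (adjusted p = 0.0173). The lactate carrier Slc16a1 alone was higher in SmoM2, by 0.72 (adjusted p = 0.0471). All 3 SmoM2 libraries lay below all 3 ShhN IUE libraries for each of the 11 lower genes, and above them for Slc16a1. Of all 12349 genes tested, 5061 did not overlap between these groups, 2516 of them higher in SmoM2.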

How the results depend on the processing

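Over 55 log2 fold changes of named genes and 870 values under the alternatives, 816 kept their side of the threshold, 40 lost it, 14 gained it and 0 of the called changes turned direction. Adm, Vegfa, Hk2, Ddit4, Slc16a3, Pfkl, Pkm, Gpi1 and Gapdh stayed higher in ShhN IUE under every alternative run for them, and P4ha2 lower in SmoM2. Of the 33 genes, the number lower in ShhN IUE, 1, was 2 with DESeq2, 2 over genes with agreeing wild-type counts and 0 to 2 with 1 library left out. The number higher, 14, was 19 with DESeq2, which added Aldoa, Ankrd37, Ldha, Pfkfb3 and Pgk1, and 15 with no filter. It was 12 over genes with agreeing wild-type counts, where fewer of the 33 entered, and 10 to 21 with 1 library left out. In SmoM2 against wild type the number higher, 1, was 0 with copies added to their gene. There the number lower, 1, was 0 over genes with agreeing wild-type counts, a fit without P4ha2, and 1 to 3 with 1 library left out. In SmoM2 against ShhN IUE the number higher, 1, was 0 with upper quartile scaling or limma-voom and 2 with DESeq2. It was 2 without wild-type libraries in the fit and 0 to 1 with 1 library left out. The number lower there, 11, was 14 with DESeq2, 13 with copies added to their gene and 12 without wild-type libraries in the fit. It was 6 to 14 with 1 library left out and 15 with wild-type agreement within 0.2. Of the genes outside the 33, 20 higher and 19 lower in ShhN IUE became 11 to 23 and 8 to 15 with 1 library left out, and 12 lower over genes with agreeing wild-type counts. The 9 higher and 7 lower in SmoM2 became 3 to 12 and 2 to 8. Over all genes, 5380 calls in ShhN IUE became 3251 to 4624, 3112 in SmoM2 became 1334 to 3010, and 2040 between SmoM2 and ShhN IUE became 834 to 1898, all with fewer libraries. With ACGTG as the only core, 58.5% in place of 82.9% of promoter windows of the 33 genes held it. Other than where fewer genes or libraries entered the fit, the cause was not tested. Apart from fits with 1 library left out, shares of all genes called under the same setting are not given here.

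Same-numbered libraries did not deviate together, with correlations of 0.264, -0.32 and -0.114 between ShhN IUE and wild type and -0.0799, -0.144 and 0.0521 between SmoM2 and wild type, so the number is not taken as a pairing. With the number as a replicate block, 11 of the 33 genes were higher and 0 lower in ShhN IUE, and 13 and 11 of the genes outside the list. These counts stand without the share of all genes called with the block. Of the 33 genes, the counts for SmoM2 against wild type and against ShhN IUE were as without the block.

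Limits are the 3 libraries a group, the lack of an electroporated control, wild-type counts that differ between tables for 10 of the 33 genes, and reads shared with copies, with which added the Eno1 call in SmoM2 was lost. Exon overlaps were not resolved by strand. Car9, with 1 to 11 reads in ShhN IUE, was not tested.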
